A study of Mus musculus with 12 samples.

Results

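The 10 genes described here are the inhibitors of the cyclin-dependent kinases (CDKs) and the retinoblastoma family: the Cip/Kip inhibitors Cdkn1a, Cdkn1b and Cdkn1c, the INK4 inhibitors Cdkn2a, Cdkn2b, Cdkn2c and Cdkn2d, and the pocket proteins Rb1, Rbl1 and Rbl2. They were taken by symbol from a table of raw read counts with 48795 gene rows, and each symbol had 1 row. In 12 libraries the RNA of leukemic LTHSC (long-term hematopoietic stem cells, from which all blood forms) was sequenced. They were sorted from the marrow of C57BL/6 mice in which the tumor is chronic myeloid leukemia (CML), and the title of the series links their quiescence to Cxcl12 made by mesenchymal niche cells. The 3 groups of 4 biological replicates each are named after the Cre line of the mice, No_Cre without Cre, Tek_Cre and Prx1_Cre. Tek-Cre is known to act in endothelial and blood-forming cells and Prx1-Cre in mesenchymal stroma. The mice are termed recipient in one label and primary in another. The labels give no age, no leukemia model and no allele for the Cre to recombine, so it cannot be said from them in which cells a gene was deleted. They do not say either whether each library came from a separate mouse, and the p-values below then measure only the spread between these libraries.

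A cell passes from G1 into S phase when cyclin D with CDK4 or CDK6, and then cyclin E with CDK2, phosphorylate the pocket proteins, which otherwise hold E2F factors and repress the genes of DNA replication. INK4 proteins bind CDK4 and CDK6 and keep cyclin D off, while Cip/Kip proteins bind whole cyclin-CDK complexes and block CDK2 in particular. Quiescence of blood stem cells is known to depend on this layer, with Cdkn1c and the pocket proteins among the genes that keep mouse LTHSC out of cycle.

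Promoter windows are shown for the pocket protein genes Rbl1 and Rbl2, in which the groups came in different orders, and for Cdkn1a, the Cip/Kip gene that was higher in both Cre groups. The windows come from RefSeq on GRCm38.p6, which held 8 of the 10 genes, and hold the 250 bases upstream of a start site, 5′ to 3′ on the gene's strand. Capitals mark an E2F octamer (TTTGGCGC, TTTCCCGC, TTTCGCGC or TTTGCCGC) or a GC box (GGGCGG), each searched on both strands. The Rbl1 window is chr2:157204535-157204784 on the minus strand, the Rbl2 window chr8:91069807-91070056 on the plus strand, and the Cdkn1a window, before the second of its RefSeq starts, chr17:29093519-29093768 on the plus strand.
Rbl1: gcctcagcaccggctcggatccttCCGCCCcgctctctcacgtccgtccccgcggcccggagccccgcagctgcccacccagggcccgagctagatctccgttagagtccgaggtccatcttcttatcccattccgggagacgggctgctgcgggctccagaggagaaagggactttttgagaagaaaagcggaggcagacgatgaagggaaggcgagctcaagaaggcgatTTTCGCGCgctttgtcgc
Rbl2: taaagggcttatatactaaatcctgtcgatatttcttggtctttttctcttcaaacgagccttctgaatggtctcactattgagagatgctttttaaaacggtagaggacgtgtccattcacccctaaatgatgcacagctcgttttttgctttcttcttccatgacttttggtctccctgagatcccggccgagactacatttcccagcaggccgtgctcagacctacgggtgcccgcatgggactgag
Cdkn1a: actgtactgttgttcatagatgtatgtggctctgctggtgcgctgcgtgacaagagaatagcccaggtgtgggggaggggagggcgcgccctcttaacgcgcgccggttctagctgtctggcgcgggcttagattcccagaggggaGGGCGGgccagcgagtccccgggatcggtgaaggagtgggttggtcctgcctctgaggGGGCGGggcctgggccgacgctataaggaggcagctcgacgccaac
The Rbl1 window held the E2F octamer TTTCGCGC from -18 to -11, counted from the base before the start as -1, and 1 GC box on the other strand. The Rbl2 window held neither, and the Cdkn1a window held a pair of GC boxes and no octamer. The 8 genes had 11 windows. An octamer was found in 2 windows, of Rbl1 and Cdkn2a, and a GC box in 6 windows of 6 genes. Over 32851 windows of all genes 1.86% held an octamer and 32.7% a GC box, or 2.16% and 35.4% of 27025 genes. A match is a run of letters and was not tested as a site of binding.

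Levels are CPM, the count of a gene per 1000000 counts of the library's effective size under trimmed mean of M-values (TMM) scaling, and means are ± SD over the 4 libraries of a group (n = 4). Total counts ran from 15715603 to 28860324 per library. The share of counts on immunoglobulin genes was 7.31 to 7.71% in No_Cre, 25.2 to 26.02% in Tek_Cre and 0.296 to 0.310% in Prx1_Cre. That on mitochondrially encoded genes was 0.117 to 0.142%, 0.105 to 0.126% and 0.282 to 0.456%. The immunoglobulin kappa V gene with the most counts in a group was Igkv10-96 in No_Cre, Igkv6-32 in Tek_Cre and Igkv12-46 in Prx1_Cre. Its share of the kappa V counts per library was 29.3 to 31.1%, 17.5 to 18.5% and 99.34 to 99.41%. Whether the libraries of a group came from a shared pool of cells was not tested. The biological coefficient of variation within the groups was 3.46%, 5.23% and 6.85% in the same order. Prx1_Cre replicate 4 stood apart: its chi-square per degree of freedom against the other libraries of its group was 11.2 to 14.2, against 1.79 to 7.75 for the other 15 pairs within groups, and its mitochondrial share of 0.282% was below the 0.404 to 0.456% of the others. Without it every member called between Prx1_Cre and either other group kept its direction and its call. Most genes passed the test at an adjusted p under 0.05: 75.6% of the 14756 genes tested between Prx1_Cre and No_Cre, 52.9% between Tek_Cre and No_Cre and 77.6% between Prx1_Cre and Tek_Cre. Sizes are therefore given beside each call, and the median size of change over all genes was 0.48, 0.22 and 0.53 on the log2 scale.

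Of the 10 genes 9 passed the filter on low counts, and Cdkn2a did not. Cdkn2b passed it only through the Cre libraries and is counted below among the higher genes, where its call is a description. Between Prx1_Cre and No_Cre all 9 passed the test, 5 higher in Prx1_Cre (Cdkn1a, Cdkn2b, Rb1, Rbl1 and Rbl2) and 4 lower (Cdkn1b, Cdkn1c, Cdkn2c and Cdkn2d), against 36.7% of all genes called higher and 39.0% lower. Tested against a 1.5-fold change, 4 were higher and 3 lower, against 12.5% and 18.3% of all genes, or 30.8% together. For all 9 the libraries of the groups did not overlap, against 68.6% of all genes. Between Tek_Cre and No_Cre 5 were higher (Cdkn1a, Cdkn1c, Cdkn2b, Cdkn2d and Rbl2) and 1 lower (Cdkn1b), against 26.4% and 26.5% of all genes. Past 1.5-fold Cdkn2b was higher and Cdkn1b lower, against 7.08% and 5.35% of all genes, or 12.4% together. The groups did not overlap for 4 members, against 48.7% of all genes. Between Prx1_Cre and Tek_Cre 3 were higher in Prx1_Cre (Cdkn1a, Rb1 and Rbl1) and 4 lower (Cdkn1c, Cdkn2c, Cdkn2d and Rbl2), against 37.8% and 39.8%, and 2 were higher and 2 lower past 1.5-fold against 15.1% and 20.4%, or 35.5% together. The groups did not overlap for 7 members, against 69.3% of all genes. Each group enters 2 of the 3 comparisons, so they share libraries. The direction of several Tek_Cre changes rests on the scaling: with library totals in place of TMM factors, a setting chosen after seeing the data, Tek_Cre had 1515 genes higher and 9679 lower than No_Cre in place of 3896 and 3911, and 1 member higher and 5 lower in place of 5 and 1. When the immunoglobulin genes were first removed, library totals gave the direction of TMM for every member tested, while the calls of Rbl2 in Prx1_Cre (0.07, adjusted p = 0.153) and Cdkn2d in Tek_Cre (0.07, adjusted p = 0.131), each against No_Cre, were lost. The RNA is that of sorted pools, in which fewer cells of a type and less RNA per cell cannot be told apart.

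**Figure D1:**
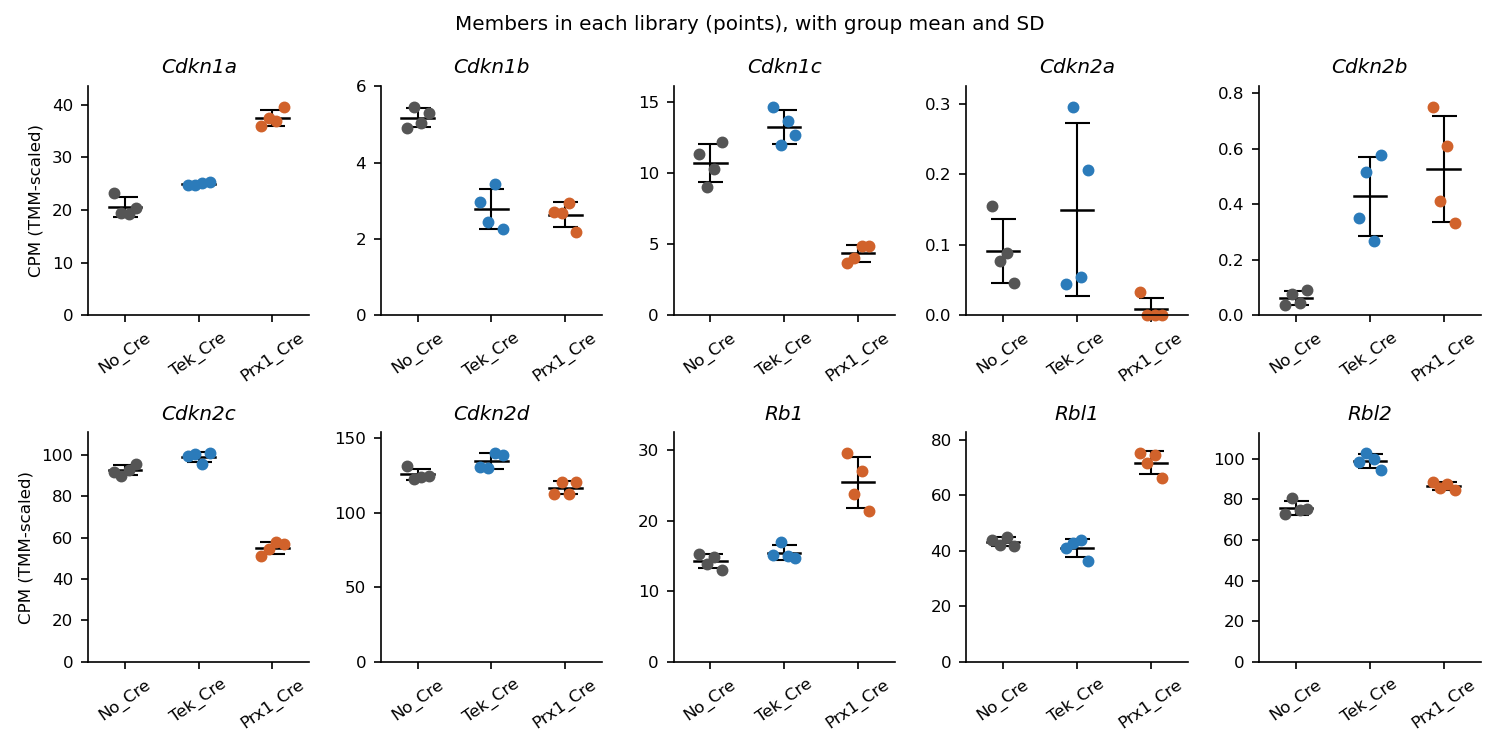
CPM after TMM scaling (y axis, linear, from 0, own scale per panel) of the 10 genes in each of the 12 libraries (points), by group, with the group mean and SD (bars). Cdkn1a, Rb1 and Rbl1 are highest in all 4 Prx1_Cre libraries and Cdkn1c and Cdkn2c lowest there, while Cdkn1b is highest in No_Cre. Cdkn2a and Cdkn2b rest on a few counts per library.

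Among the Cip/Kip genes, Cdkn1a (ENSMUSG00000023067.13, GRCm38 chr17:29090976-29100727, plus strand) encodes p21, a CDK inhibitor and target of p53. Its CPM in replicates 1 to 4 was 23.3, 19.5, 19.2 and 20.3 in No_Cre, 24.8, 24.8, 25.1 and 25.3 in Tek_Cre, and 36.05, 37.4, 37.0 and 39.6 in Prx1_Cre. The 3 groups did not overlap, with No_Cre lowest and Prx1_Cre highest. Beside the rise in Prx1_Cre over No_Cre, of 0.86 ± 0.06 on the log2 scale (SE; edgeR quasi-likelihood test, adjusted p = 1.35e-11), Cdkn1a was 0.28 ± 0.07 higher in Tek_Cre than in No_Cre (adjusted p = 0.00106) and higher again in Prx1_Cre, by 0.58 ± 0.06 over Tek_Cre (adjusted p = 1.27e-08). With library totals the Tek_Cre change was -0.07 (adjusted p = 0.364), and with the immunoglobulin genes also removed 0.25 (adjusted p = 0.00264).

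Cdkn1b (ENSMUSG00000003031.14, chr6:134920401-134925513, plus strand) encodes p27, which is controlled largely through its degradation by the SKP2 ubiquitin ligase. Its CPM was 4.91, 5.46, 5.04 and 5.30 in No_Cre, 2.98, 2.44, 3.43 and 2.27 in Tek_Cre, and 2.71, 2.68, 2.95 and 2.17 in Prx1_Cre. Every No_Cre library was above every library of the Cre groups, which overlapped. The fall from No_Cre was 0.97 ± 0.13 in Prx1_Cre (log2 change -0.97, SE, adjusted p = 6.80e-07) and 0.90 ± 0.14 in Tek_Cre (log2 change -0.90, adjusted p = 1.13e-05). No difference was called between the Cre groups, where the log2 change was -0.08 with a 95% confidence interval from -0.39 to 0.24 (adjusted p = 0.657), and 0.26 with library totals (adjusted p = 0.128).

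Cdkn1c (ENSMUSG00000037664.13, chr7:143458339-143461050, minus strand) encodes p57, is imprinted, and is the Cip/Kip gene best known for quiescence of mouse LTHSC. Its CPM was 11.3, 9.03, 10.3 and 12.2 in No_Cre, 14.7, 11.98, 13.7 and 12.7 in Tek_Cre, and 3.66, 4.0, 4.85 and 4.88 in Prx1_Cre. The Prx1_Cre libraries lay far below the others, and the highest No_Cre library was above the lowest Tek_Cre library. Cdkn1c was 2.46-fold lower in Prx1_Cre than in No_Cre (log2 change -1.30 ± 0.12, adjusted p = 4.00e-10) and 3.07-fold lower than in Tek_Cre (-1.62 ± 0.12, adjusted p = 5.96e-12). It was higher in Tek_Cre than in No_Cre by 0.32 ± 0.10 on the log2 scale (adjusted p = 0.0134). That call was lost without No_Cre replicate 2 (0.24, adjusted p = 0.0688) and without Tek_Cre replicate 1 (0.26, adjusted p = 0.0657), and with library totals the value was -0.03 (adjusted p = 0.794). Cdkn1a and Cdkn1c thus moved in opposite directions in Prx1_Cre.

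Of the INK4 genes, Cdkn2c and Cdkn2d carried nearly all the counts. Cdkn2c (ENSMUSG00000028551.14, chr4:109660876-109667189, minus strand) encodes p18, whose loss is known to expand mouse blood stem cells. Its CPM was 91.7, 90.0, 92.9 and 95.8 in No_Cre, 99.3, 100.3, 95.6 and 100.7 in Tek_Cre, and 51.0, 54.3, 57.7 and 56.7 in Prx1_Cre. Every Prx1_Cre library was below every other library, and the highest No_Cre library lay just above the lowest Tek_Cre library. Cdkn2c was 1.69-fold lower in Prx1_Cre than in No_Cre (log2 change -0.75 ± 0.05, adjusted p = 3.28e-13) and fell against Tek_Cre by 0.85 ± 0.05 (log2 change -0.85, adjusted p = 2.92e-14). In Tek_Cre against No_Cre it missed the threshold at 0.10 ± 0.04 (95% confidence interval from 0.00 to 0.19, adjusted p = 0.0719), and with library totals it was lower there (-0.25, adjusted p = 1.69e-05).

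Cdkn2d (ENSMUSG00000096472.1, chr9:21288410-21291407, minus strand) encodes the p19 INK4 protein and had the highest level of the family. Its CPM was 131.3, 122.8, 123.7 and 124.5 in No_Cre, 130.8, 129.6, 139.7 and 138.5 in Tek_Cre, and 112.8, 120.3, 112.7 and 120.5 in Prx1_Cre. The Prx1_Cre libraries were lowest throughout, and No_Cre and Tek_Cre overlapped. The changes were small beside those of Cdkn2c: -0.11 ± 0.04 in Prx1_Cre against No_Cre (adjusted p = 0.0212), 0.10 ± 0.04 in Tek_Cre against No_Cre (adjusted p = 0.0439), and -0.21 ± 0.04 in Prx1_Cre against Tek_Cre (adjusted p = 7.59e-05). The first was lost without No_Cre replicate 1 (adjusted p = 0.0782) and without Prx1_Cre replicate 1 or 3 (adjusted p = 0.0711 and 0.0724). The call for Tek_Cre was lost when any of 8 single libraries was left out, and DESeq2 gave it an adjusted p of 0.0547. With library totals Cdkn2d was lower in Tek_Cre than in No_Cre (-0.25, adjusted p = 3.64e-06) and Prx1_Cre exceeded Tek_Cre (0.12, adjusted p = 0.0045).

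Cdkn2b and Cdkn2a lie side by side on chromosome 4. Cdkn2b (ENSMUSG00000073802.4, chr4:89306299-89311039, minus strand) encodes p15, an INK4 inhibitor induced by TGF-beta. It had 1, 2, 1 and 2 counts in the No_Cre libraries, 8, 7, 5 and 14 in Tek_Cre, and 23, 10, 17 and 8 in Prx1_Cre, or 0.0630 ± 0.0258, 0.429 ± 0.144 and 0.527 ± 0.190 CPM. Each library of the Cre groups was above each No_Cre library, with log2 changes of 3.01 ± 0.48 in Prx1_Cre (adjusted p = 5.85e-06) and 2.68 ± 0.53 in Tek_Cre (adjusted p = 0.000181), which rest on 6 counts in the 4 No_Cre libraries. Cdkn2b passed the filter on low counts only through the Cre libraries, where it is high, so it had to differ from No_Cre and these tests add no support. The Cre groups overlapped and no difference was called between them (0.33, 95% confidence interval from -0.37 to 1.03, adjusted p = 0.381). Cdkn2a (ENSMUSG00000044303.6, chr4:89274471-89294653, minus strand) holds the p16 INK4 inhibitor and, from another first exon, p19 ARF, which acts on p53, and a count per gene does not separate them. It had 4, 2, 2 and 1 counts in No_Cre, 1, 4, 1 and 5 in Tek_Cre, and 1, 0, 0 and 0 in Prx1_Cre. A floor of 3 counts over the 4 libraries of a group stands for 0.0339, 0.0323 and 0.0303 CPM, counting error only, and the 1 count of Prx1_Cre lies under it. At this depth no fold can be given for Cdkn2a; without the filter on low counts the edgeR adjusted p was 0.0301 for Prx1_Cre against No_Cre, 0.00501 for Prx1_Cre against Tek_Cre and 0.630 for Tek_Cre against No_Cre.

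**Figure D2:**
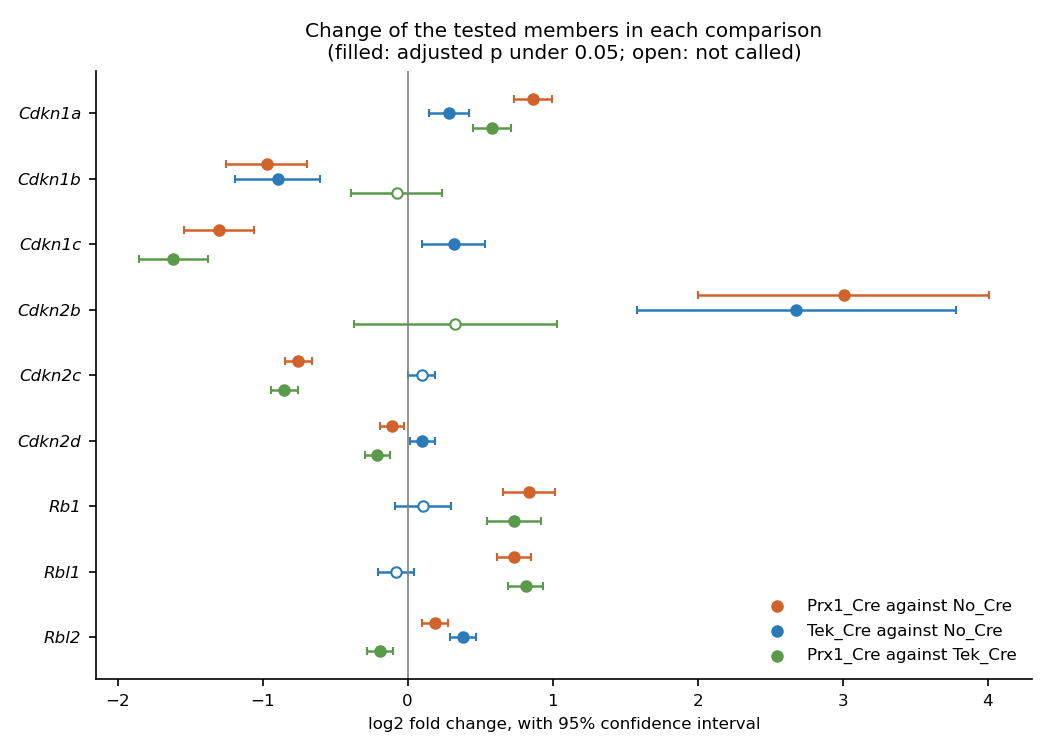
Log2 fold change of the 9 tested genes in the 3 comparisons (points) with 95% confidence intervals (bars); filled points were called at an adjusted p under 0.05 and open ones were not, and the line at 0 marks no change. Rb1, Rbl1 and Cdkn1a are on the higher side and Cdkn1c and Cdkn2c on the lower side of 0 in Prx1_Cre against each of the other groups, and the intervals of Cdkn2b are widest.

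Among the pocket proteins, Rb1 (ENSMUSG00000022105.6, chr14:73183673-73325822, minus strand) encodes the retinoblastoma protein, which holds the activating E2F factors. Its CPM was 15.2, 13.9, 14.9 and 13.1 in No_Cre, 15.1, 17.0, 14.96 and 14.7 in Tek_Cre, and 29.5, 23.8, 27.02 and 21.3 in Prx1_Cre. All Prx1_Cre libraries were above all others, while No_Cre and Tek_Cre overlapped. Rb1 was 1.79-fold higher in Prx1_Cre than in No_Cre (log2 change 0.84 ± 0.09, adjusted p = 7.47e-09) and 0.73 ± 0.09 higher than in Tek_Cre (adjusted p = 8.13e-08), and the change in Tek_Cre against No_Cre was 0.11 (95% confidence interval from -0.09 to 0.30, adjusted p = 0.367), or -0.24 with library totals (adjusted p = 0.0297). Exons of Rcbtb2 and Lpar6 overlap those of Rb1 on the opposite strand, and the strand setting of the counting is not given. Reads of these genes and of Rb1 cannot be told apart where they overlap. Summed over the libraries of No_Cre, Tek_Cre and Prx1_Cre, Rcbtb2 had 8376, 7564 and 7535 raw counts and Lpar6 1367, 1225 and 601, and their part in the Rb1 values was not tested.

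Rbl1 (ENSMUSG00000027641.13, chr2:157145893-157204534, minus strand) encodes p107, whose gene is itself a target of E2F and is most active in dividing cells. Its CPM was 44.1, 42.0, 45.1 and 41.8 in No_Cre, 41.2, 42.7, 43.8 and 36.5 in Tek_Cre, and 75.2, 71.7, 74.5 and 66.2 in Prx1_Cre. As for Rb1, the Prx1_Cre libraries stood above the rest and the other groups overlapped. Rbl1 was 1.66-fold higher in Prx1_Cre than in No_Cre (log2 change 0.73 ± 0.06, adjusted p = 3.67e-11) and 0.81 ± 0.06 higher than in Tek_Cre (adjusted p = 6.54e-12). For Tek_Cre against No_Cre the value was -0.08 (95% confidence interval from -0.20 to 0.04, adjusted p = 0.276), or -0.43 with library totals (adjusted p = 2.15e-06).

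Rbl2 (ENSMUSG00000031666.15, chr8:91070057-91123844, plus strand) encodes p130, the pocket protein typical of resting cells, where with E2F4 and the MuvB core it forms the DREAM repressor complex. Its CPM was 72.6, 80.9, 74.7 and 75.4 in No_Cre, 98.5, 102.7, 99.8 and 94.6 in Tek_Cre, and 88.6, 85.5, 87.8 and 84.6 in Prx1_Cre. The 3 groups did not overlap, with Tek_Cre highest and Prx1_Cre between the others. Rbl2 was higher than in No_Cre by 0.38 ± 0.04 in Tek_Cre (adjusted p = 1.38e-07) and by 0.19 ± 0.04 in Prx1_Cre (adjusted p = 0.000386), and in Prx1_Cre it was below Tek_Cre (-0.19 ± 0.04, adjusted p = 0.000400). With library totals this last value turned to 0.14 (adjusted p = 0.0047), and that of Tek_Cre against No_Cre was 0.03 (adjusted p = 0.511). The change in Prx1_Cre against No_Cre was 0.07 (adjusted p = 0.153) with library totals after removal of the immunoglobulin genes. Rb1 and Rbl1 were thus highest in Prx1_Cre, with no difference called between the other groups. Rbl2 differed from both, highest in Tek_Cre under TMM scaling but not with library totals of all genes. With library totals after removal of the immunoglobulin genes, Rbl2 kept its TMM direction in each comparison. Its calls between Tek_Cre and either other group were also kept there. Exons of Aktip overlap those of Rbl2 on the opposite strand, with 2402, 2208 and 2088 counts in the 3 groups.

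Levels of different genes can be set side by side only per length, here as CPM per kilobase of exon. In No_Cre the order was Cdkn2d at 79.8, Cdkn2c at 34.5, Rbl2 at 10.04, Rbl1 at 7.22, Cdkn1a at 5.79, Cdkn1c at 5.25, Rb1 at 2.37, Cdkn1b at 1.14, Cdkn2a at 0.0781 and Cdkn2b at 0.0453. Library ranges of neighbours in this order overlapped only for Cdkn1a with Cdkn1c and for Cdkn2a with Cdkn2b. In Tek_Cre Cdkn2d, Cdkn2c and Rbl2 again led, at 85.6, 36.9 and 13.1, and the next 3, Cdkn1a at 7.04, Rbl1 at 6.85 and Cdkn1c at 6.50, overlapped. They were followed by Rb1 at 2.57, Cdkn1b at 0.611, Cdkn2b at 0.308 and Cdkn2a at 0.128, of which the last pair overlapped. In Prx1_Cre the order changed below Cdkn2d at 74.1 and Cdkn2c at 20.4: Rbl1 at 12 overlapped Rbl2 at 11.5, and Cdkn1a at 10.6, Rb1 at 4.23 and Cdkn1c at 2.13 followed. Last came Cdkn1b at 0.577 and Cdkn2b at 0.379, which overlapped, and Cdkn2a at 0.00697. Cdkn1c thus stood above Rb1 in No_Cre and Tek_Cre and below it in Prx1_Cre. The order around Cdkn1a rests on the length used: per kilobase of the longest transcript in place of the union of exons, Cdkn1a came to 9.89, 12.03 and 18.03 in No_Cre, Tek_Cre and Prx1_Cre. By group means it then stood above Rbl1, at 8.90, 8.44 and 14.8, in each group, and in Prx1_Cre also above Rbl2, at 17.6. Libraries overlapped for Cdkn1a (SD 0.908) with Rbl1 (SD 0.337) in No_Cre and for Cdkn1a (SD 0.725) with Rbl2 (SD 0.380) in Prx1_Cre. Cdkn1c on that length was at 5.63, 6.97 and 2.29.

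Summed per family, the Cip/Kip genes came to 12.2 ± 1.0 CPM per kilobase in No_Cre, 14.2 ± 0.654 in Tek_Cre and 13.3 ± 0.621 in Prx1_Cre, while their make-up differed. Cdkn1a gave 47.6 ± 2.47%, 49.8 ± 2.37% and 79.6 ± 1.54% of the sum in that order of groups, and Cdkn1c 43.0 ± 2.78%, 45.9 ± 1.99% and 16.0 ± 1.62%. With the longest transcript as length the Cip/Kip sums were 16.7 ± 1.36, 19.6 ± 0.693 and 20.9 ± 0.923, so that Prx1_Cre and not Tek_Cre had the highest mean, and the share of Cdkn1a was 59.4%, 61.4% and 86.3%. The INK4 sum was 114 ± 2.57, 123 ± 2.94 and 94.9 ± 3.09, and the share of Cdkn2c in it 30.1%, 30.0% and 21.5%. The pocket protein sum was 19.6 ± 0.405, 22.5 ± 1.07 and 27.7 ± 1.5. Within it Rbl1 held 36.8 ± 1.34%, 30.4 ± 1.16% and 43.3 ± 0.508%, and Rbl2 51.2%, 58.2% and 41.5%. These sums and shares describe the libraries and were not tested.

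**Figure D3:**
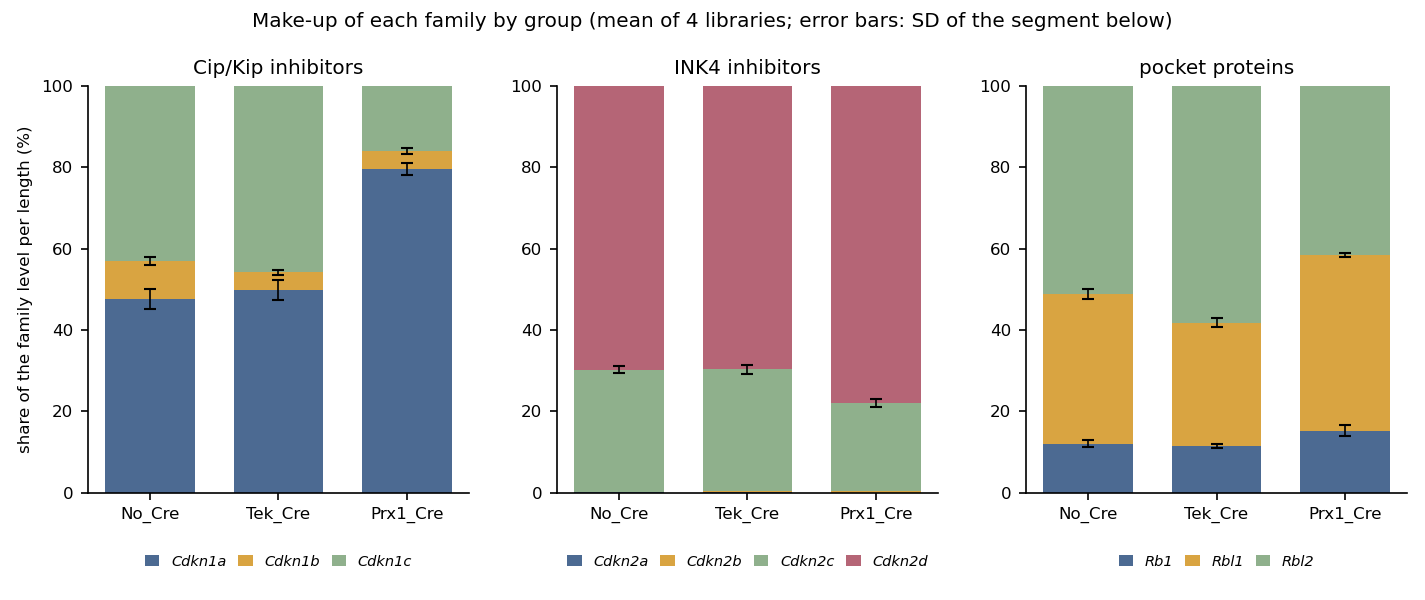
Share of each gene in the summed CPM per kilobase of exon of its family (y axis, %, from 0 to 100), by group, as stacked bars of group means (n = 4), with the SD of a gene's share as the error bar at the top edge of its segment. Cdkn1a takes 79.6% of the Cip/Kip sum in Prx1_Cre and under 50% in the other groups (86.3%, 59.4% and 61.4% in Prx1_Cre, No_Cre and Tek_Cre with the longest transcript as length), and Cdkn2a and Cdkn2b are too low to be seen.

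The other genes of the pathway were read from lists by role. Counts called are to be read beside the shares over all genes tested. These were 36.7% higher and 39.0% lower in Prx1_Cre than in No_Cre, and 26.4% and 26.5% in Tek_Cre. Of the 8 G1 cyclins and CDKs, 5 were higher and 3 lower in Prx1_Cre than in No_Cre (median log2 change 0.11, over all genes -0.02), and 2 were higher and 3 lower in Tek_Cre (median -0.11, over all genes 0.00). Ccne1, the cyclin E that activates CDK2, had 121 ± 4.75 CPM in Prx1_Cre, 49.5 ± 1.6 in Tek_Cre and 29.1 ± 2.35 in No_Cre, a log2 change of 2.05 ± 0.05 in Prx1_Cre against No_Cre (adjusted p = 3.47e-20) and 0.76 ± 0.06 in Tek_Cre (adjusted p = 5.95e-11). Of 10 E2F and DP factors 7 were higher and 3 lower in Prx1_Cre (median 0.42), and 4 and 4 in Tek_Cre (median -0.05). E2f2, an activating E2F, had 65.8 ± 2.98 CPM in Prx1_Cre and 30.8 ± 0.397 in No_Cre (1.09 ± 0.05, adjusted p = 5.67e-15). Of 6 genes of the MuvB core and B-Myb, 4 were higher and 1 lower in Prx1_Cre (median 0.37), and none higher and 3 lower in Tek_Cre (median -0.11). B-Myb (Mybl2), which takes the place of the pocket protein on MuvB in cycling cells, was at 122 ± 7.13 against 54.9 ± 1.94 CPM in No_Cre (1.16 ± 0.05, adjusted p = 1.12e-15).

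All 20 E2F target genes of S phase on the list were higher in Prx1_Cre than in No_Cre, with a median log2 change of 0.53, against 36.7% of all genes called higher, and 5 of them passed 1.5-fold, against 12.5%. All 20 were also higher than in Tek_Cre (median 0.68, against 37.8% of all genes), 11 of them past 1.5-fold. In Tek_Cre against No_Cre none was higher and 12 were lower, with a median of -0.14, against 26.5% of all genes called lower. Of those with the largest changes, Cdc6, which loads the replicative helicase, was at 153 ± 5.52 CPM in Prx1_Cre and 61.3 ± 1.09 in No_Cre (log2 change 1.31), the ribonucleotide reductase subunit Rrm2 at 420 ± 19.8 and 172 ± 3.53 (1.29), cyclin A2 (Ccna2) at 246 ± 12.7 and 113 ± 4.59 (1.12), and Rrm1 at 684 ± 44.5 and 337 ± 7.98 (1.02). Thus in Prx1_Cre against No_Cre higher S phase genes came with higher Cdkn1a, Rb1 and Rbl1 and with lower Cdkn1b, Cdkn1c and Cdkn2c. Rbl2 was also higher (0.19) and Cdkn2d lower (-0.11), neither past 1.5-fold, and Cdkn2b was higher on few counts. The list was chosen with earlier results of these data known.

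The factors of the ubiquitin ligases that degrade p27, p21 and p57 were higher in Prx1_Cre than in No_Cre for 8 of 10 genes tested and lower for 1 (median 0.50), and in Tek_Cre 2 were higher and 5 lower (median -0.14). Skp2, which recognizes p27 and was named after its values were seen, had 29.2 ± 0.886 CPM in Prx1_Cre, 12.1 ± 0.877 in Tek_Cre and 15.6 ± 1.6 in No_Cre. Its log2 change from No_Cre was 0.91 ± 0.07 in Prx1_Cre (adjusted p = 8.08e-11) and -0.37 in Tek_Cre (adjusted p = 0.000535), whereas Cdkn1b mRNA was lower in both. Of 16 known transcriptional regulators of the inhibitor genes, 6 were higher and 8 lower in Prx1_Cre (median -0.03), and 3 and 6 in Tek_Cre (median -0.12). For both lists the shares over all genes were 36.7% higher and 39.0% lower in Prx1_Cre, and 26.4% and 26.5% in Tek_Cre. Id1, an inhibitor of E proteins, was at 43.7 ± 5.0 CPM in Prx1_Cre and 16.5 ± 1.19 in No_Cre (1.40 ± 0.09, adjusted p = 5.88e-13). Foxo1, a factor that activates Cdkn1b in other cells, was at 14.1 ± 0.687 and 31.6 ± 1.07 CPM (-1.16 ± 0.07, adjusted p = 9.29e-14). In Tek_Cre, where Cdkn1b was also lower, Foxo1 was at 34.4 ± 2.39 CPM and not called against No_Cre (0.12 ± 0.06, adjusted p = 0.107). Foxo3 was lower in Tek_Cre than in No_Cre, at 9.80 and 14.3 CPM (-0.55 ± 0.08, adjusted p = 2.28e-06). In Prx1_Cre it was not called against No_Cre (0.08, adjusted p = 0.283). Foxo4, at 0.764 CPM in No_Cre, was lower in Prx1_Cre (-1.62 ± 0.32, adjusted p = 6.92e-05) and not called in Tek_Cre (-0.14, adjusted p = 0.708). A link between these Foxo genes and Cdkn1b was not tested.

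**Figure D4:**
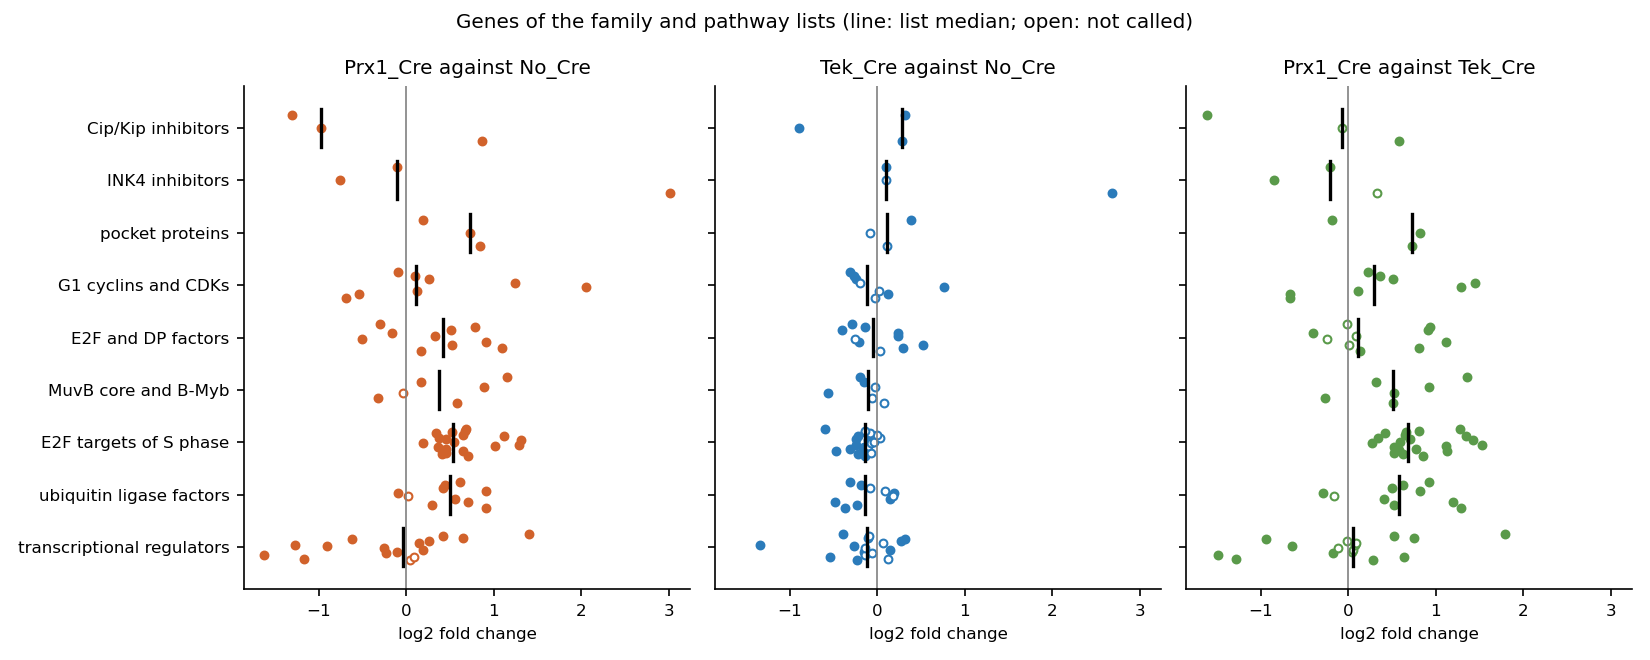
Log2 fold change (x axis) of each tested gene (points, open where not called) of the 3 families and the 6 pathway lists (rows), with the list median (black line), in the 3 comparisons (panels); the grey line at 0 marks no change. The 20 E2F targets of S phase all lie above 0 in Prx1_Cre against No_Cre, with a median of 0.53, and their median in Tek_Cre against No_Cre is -0.14.

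Genes whose pattern was most like that of the leading member of each family were ranked by Pearson's r of log2 CPM over the 12 libraries among 8967 genes, as a description in which the points share libraries and groups. For Cdkn1a they were Olfml2b (r = 0.989), Hp (0.988) and Slc41a3 (0.987), and 866 genes exceeded 0.9. For Cdkn2d they were Zbtb22 (0.945), Arf3 (0.944) and Mrpl54 (0.941), and 171 exceeded 0.9. For Rbl2 they were Srpr (0.982), Fpr1 (0.980) and Ifitm6 (0.968), and 64 exceeded 0.9.

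Markers of LTHSC and of other cells moved with the groups beside the members. Calls below are against No_Cre, where 36.7% of all genes were higher and 39.0% lower in Prx1_Cre, and 26.4% and 26.5% in Tek_Cre. The summed CPM of 10 LTHSC markers was 1156 to 1172 in No_Cre, 1486 to 1547 in Tek_Cre and 546 to 563 in Prx1_Cre, with 9 of 10 lower in Prx1_Cre than in No_Cre and 7 higher and 1 lower in Tek_Cre. The 14 erythroid markers summed to 1729 to 1775, 1257 to 1308 and 6405 to 6493 CPM, all 14 higher in Prx1_Cre and 12 lower in Tek_Cre. The 12 neutrophil markers summed to 21549 to 21690, 25238 to 25756 and 37048 to 39827 CPM, with 10 higher and 1 lower in Prx1_Cre and 6 higher and 5 lower in Tek_Cre. In Tek_Cre the granule genes Mpo, Elane, Prtn3 and Ctsg and the gene Ms4a3 were the lower ones, and Ltf, Camp, S100a8, S100a9, Ly6g and Mmp8 the higher ones. The B and plasma cell markers, 10 of 11 tested, summed to 391 to 413, 1431 to 1479 and 43.7 to 48.2 CPM, and Pax5 was at 0 in Tek_Cre and Prx1_Cre. The 6 multipotent progenitor markers summed to 1226 to 1287, 983 to 1014 and 618 to 623 CPM, with 2 higher and 4 lower in Prx1_Cre and 4 lower in Tek_Cre. The megakaryocyte markers, 7 of 8 tested, summed to 1297 to 1361, 1054 to 1181 and 783 to 939 CPM, with 6 lower in Prx1_Cre and 1 higher and 4 lower in Tek_Cre, and Gp6 was at 0 in No_Cre and Tek_Cre. The 10 mast cell, basophil and eosinophil markers summed to 3447 to 3546, 3456 to 3617 and 1568 to 1583 CPM, with 1 higher and 7 lower in Prx1_Cre. In Tek_Cre 5 of them were higher: Tpsb2 (2.32-fold), Ms4a2, Fcer1a, Cpa3 and Prss34 (2.78-fold). The 3 lower ones were the eosinophil genes Epx (144-fold) and Prg2 (69.3-fold), and Mcpt8 (7.35-fold). Prss34 was also the gene called higher in Prx1_Cre (7.08-fold), where Mcpt8 was lower (1.30-fold). The level of Prss34 was low, with a mean of 2.76 CPM over the 12 libraries. The monocyte, macrophage and dendritic cell markers, 9 of 10 tested, summed to 119 to 124, 101 to 112 and 191 to 202 CPM, with 4 higher and 5 lower in Prx1_Cre and 1 higher and 5 lower in Tek_Cre. Of these F13a1 (9.63-fold), Csf1r (2.41-fold), Ccr2 and Adgre1 were higher in Prx1_Cre than in No_Cre. Cd68 (2.75-fold), Ly86 (2.62-fold), Irf8, Itgax and Cx3cr1 were lower there. In Tek_Cre against No_Cre Ccr2 was 26.7-fold lower, and Cd68 was the higher gene (1.15-fold). The T and NK cell markers, 6 of 10 tested, summed to 394 to 406, 199 to 217 and 265 to 273 CPM, with 5 lower in Prx1_Cre and 2 higher and 4 lower in Tek_Cre. Cd3e and Cd3g were at 0 in No_Cre, Cd4, Cd8a and Ncr1 in Tek_Cre, and Cd3e, Cd8a and Ncr1 in Prx1_Cre. The endothelial markers, 6 of 7 tested, summed to 165 to 177, 138 to 151 and 95.1 to 99.6 CPM, with 3 higher and 3 lower in Prx1_Cre and 4 lower in Tek_Cre. Most of that sum was Pecam1 and Tek, and Cdh5 was at 0 in Tek_Cre. The stroma markers, 3 of 8 tested, summed to 76.7 to 81.4, 58.3 to 70.7 and 44.2 to 47.3 CPM, mostly of Pdgfrb at means of 73.8, 58.7 and 41.6 CPM, with 1 higher and 2 lower in Prx1_Cre and 1 higher and 1 lower in Tek_Cre. Prrx1 was at 0 in all groups and Pdgfra in Prx1_Cre. Of 15 immediate early genes 14 were tested, with 2 higher and 12 lower in Prx1_Cre, 13 lower in Tek_Cre and sums of 20248 to 22152, 15591 to 16681 and 10443 to 11452 CPM. The part of these differences in the changes of the 10 genes was not tested.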

How the data were processed

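RNA was sequenced in 12 libraries of sorted leukemic LTHSC, 4 in each of 3 groups. Per the labels' protocols, libraries were made with SMARTer Ultra Low Input and Nextera XT kits. No molecular identifiers are named there, and floors cover counting error only. The authors deposited raw counts per gene, not normalized. The submitters' processing notes name Trim Galore 0.4.4, STAR 2.5.3a, HTSeq 0.9.1, DESeq2 1.18.1 and build GRCm38. The annotation release, strand setting and filters are not given in the sources used here.

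Symbols, coordinates and exon lengths were matched by Ensembl identifier to GENCODE M21 on GRCm38, for 48435 of 48795 rows, 41427 with the same version. Where a symbol had several identifiers, the one with the most counts was taken. The comparisons used the quasi-likelihood test of edgeR 4.0.16 under R 4.3.3 (robust fit, TMM factors, filterByExpr, all 12 libraries in 1 fit). Benjamini-Hochberg adjustment covered 14756 tested genes, with calls at an adjusted p under 0.05. The same code was tested on simulated counts. A fold of 1.5 was tested with glmTreat. Alternatives were another scaling, another filter, no filter, DESeq2 1.42.0, the fit on 8 libraries, removal of immunoglobulin genes, a replicate block and leaving out each library. Library totals without factors were added after seeing the data.

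The members and lists were chosen with earlier results of these data known. Named besides the 10 members were, per pathway list, up to 4 called genes with at least 20 CPM and a log2 change of at least 1 in Prx1_Cre against No_Cre, and the 3 genes most like the leading member of each family among genes of at least 10 CPM. Level per length divides CPM by the union of exons.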

Additional observations from a re-analysis of the deposited data

Results flagged for a closer look

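Each of the 10 genes was examined in each of the 3 groups, 30 groups of 4 libraries, for a library standing apart by Dixon's test at its 95% level, which chance passes in about 1 of 20 groups. There were 2 such libraries. Cdkn2a in Prx1_Cre replicate 1 was at 0.0327 CPM, from 1 count, while the other 3 libraries of the group had none. Rb1 in Tek_Cre replicate 2 was at 17.0 CPM, with the other Tek_Cre libraries at 14.7 to 15.1 CPM. Neither value decides a call: Cdkn2a did not pass the filter, and Rb1 was not called between Tek_Cre and No_Cre with or without that library.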

How the results depend on the processing

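Of 562 values of the members under the alternatives listed with the design, 530 kept their direction and side of the threshold, 28 kept the direction and lost the call, 2 gained a call and 2 turned. Both that turned were Cdkn1b between Prx1_Cre and Tek_Cre, which was not called and ran from -0.18 to 0.036 when single libraries were left out. Leaving out single libraries left 3 to 5 members higher in Tek_Cre than in No_Cre, 3 of them without No_Cre replicate 2, where Cdkn1c (0.24, adjusted p = 0.0688) and Cdkn2d (0.09, adjusted p = 0.113) were lost. Against a 1.5-fold change, 1848 genes were higher and 2694 lower in Prx1_Cre than in No_Cre, with 4 members higher and 3 lower. In Tek_Cre 1045 genes were higher and 790 lower than in No_Cre, with 1 member higher (Cdkn2b) and 1 lower (Cdkn1b). Cdkn2b passed the filter on low counts only through the Cre libraries, so its place in these counts is a description. Between Prx1_Cre and Tek_Cre 2225 genes were higher and 3010 lower in Prx1_Cre, with 2 members higher and 2 lower. With library totals without factors, chosen after seeing the data, 1 member was higher and 5 were lower in Tek_Cre than in No_Cre, with 1515 genes higher and 9679 lower, and the members that turned were Cdkn1a (-0.066), Cdkn1c (-0.031), Cdkn2c (-0.25), Cdkn2d (-0.25) and Rb1 (-0.24). In Prx1_Cre against Tek_Cre the same setting gave 5 members higher and 2 lower, with 8235 genes higher and 3841 lower, and turned Cdkn1b (0.26), Cdkn2d (0.12) and Rbl2 (0.14). With immunoglobulin genes also removed no member turned, and the calls of Rbl2 in Prx1_Cre (0.07) and Cdkn2d in Tek_Cre (0.07) against No_Cre were lost. Upper-quartile factors moved the median of all genes in Prx1_Cre against No_Cre from -0.02 to -0.11 and Rbl2 to 0.10 (adjusted p = 0.049). Same-numbered libraries of different groups correlated at -0.03 to 0.20 in their deviations from the group means, so the numbers were not taken to pair them, and in 7 of 12 checks (4 numbers in 3 comparisons) a library was closest to its own number. With the replicate block 4177 genes were higher and 4191 lower in Tek_Cre than in No_Cre, and the only member whose call changed was Cdkn2c there (0.10, adjusted p = 0.0466). The cause of these shifts was not tested. Depth limits Cdkn2a and Cdkn2b, which a filter of 5 CPM removes.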
